A study of Mus musculus with 4 samples.

Results

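The genes described here are 10 transcription factors that control the formation of fat cells, chosen by name: the early factors Cebpb, Cebpd, Ebf1, Ebf2 and Zfp423, the late factors Pparg, Cebpa and Klf15, and the 2 further peroxisome proliferator-activated receptor (PPAR) genes Ppard and Ppara. Their identifiers were matched to symbols among the 22913 genes listed in each library, which gave 9 of the 10, and Cebpd was not analysed here. Expression was measured by RNA sequencing in dermal white adipose tissue (dWAT), the fat layer around the lower ends of hair follicles (HFs), of C57BL/6 mice. OTD and YTD are dWAT of old (18 months) and young (2 months) mice in telogen, the resting phase of the hair cycle. OAD and YAD are dWAT of old and young mice in anagen, the growth phase. Anagen had been induced by plucking the hairs, so that hair cycle phase and plucking cannot be told apart. The age field of the labels gives 18 months for YTD and 2 months for OAD, against the titles and the methods of the study, and the titles were followed here. The tissue was microdissected from the skin of a set of mice per group after removal of the subcutaneous fat and the panniculus carnosus, and 1 library per group was deposited. No spread between mice is known and no test between groups is possible, so every comparison below is one between single libraries.

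Fat cells form in a cascade of transcription factors. C/EBPβ (Cebpb) and C/EBPδ (Cebpd) are induced first by hormonal signals and switch on PPARγ (Pparg) and C/EBPα (Cebpa), which then maintain each other and activate the genes of the mature adipocyte. EBF1 and EBF2 and the zinc finger protein ZFP423 mark and commit the precursor cells, and KLF15 acts late, together with PPARγ, on genes such as that of the glucose transporter GLUT4. PPARδ and PPARα bind similar DNA elements and are best known for the control of fatty acid oxidation, PPARα most of all in liver. In skin, dWAT expands and regresses with the hair cycle.

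The promoters of Pparg and Cebpb are shown because, on the log2 scale used below, Pparg was the member farthest below and Cebpb the member farthest above 0 in anagen against telogen. The first is the window before the start inside the Pparg gene (chr6:115421816-115422065, plus strand) that gives the adipocyte form PPARγ2, and the second is that before the Cebpb start (chr2:167688665-167688914, plus strand). Both hold the 250 bases before the start on GRCm38.p6 and come from RefSeq, which had windows for 8 of the 10 members, 12 windows in all. Capitals mark matches, on either strand, to a C/EBP motif (TTGCNNAA) in the first and to an EBF motif (CCCNNGGG) in the second.
Pparg: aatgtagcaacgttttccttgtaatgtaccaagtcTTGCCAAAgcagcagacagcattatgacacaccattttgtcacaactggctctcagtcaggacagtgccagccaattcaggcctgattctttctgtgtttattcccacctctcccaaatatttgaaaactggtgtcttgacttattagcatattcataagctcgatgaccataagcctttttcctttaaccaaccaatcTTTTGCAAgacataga
Cebpb: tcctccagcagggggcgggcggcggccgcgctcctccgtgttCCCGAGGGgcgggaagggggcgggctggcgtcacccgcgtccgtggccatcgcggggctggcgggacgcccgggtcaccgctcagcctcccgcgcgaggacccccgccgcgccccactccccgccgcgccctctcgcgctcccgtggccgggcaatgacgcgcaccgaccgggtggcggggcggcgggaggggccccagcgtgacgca
The Pparg window held 2 C/EBP matches, TTGCCAAA beginning 215 bases and TTTTGCAA beginning 16 bases before the start. The Cebpb window held 1 EBF match, CCCGAGGG, beginning 208 bases before the start, and no match to the C/EBP motif. Of 32851 promoter windows of this length, 9.56% held at least 1 C/EBP match and 11.8% at least 1 EBF match, so a match on its own is frequent. Among the other members' windows, 1 of Zfp423 had a C/EBP match, another of Zfp423 and that of Ppara each had an EBF match, and none held the glucocorticoid receptor motif ACANNNTGT, which is in 5.84% of all windows, or 2 copies of AGGTCA spaced by 1 base, the PPAR element, which is in 0.0335%. The matches do not overlap. They describe the letters of the window and do not show that a factor binds there. FPKM were given per gene, so the Pparg forms were not separated.

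Values are FPKM, fragments scaled by gene length and library size. Judged by the smallest FPKM values, the libraries held roughly 19500000 to 24200000 fragments each, and all 9 members lay above the FPKM that 3 fragments give in each library. The libraries differed in composition. The mitochondrial share of all FPKM was 52.7% (OTD) and 44.7% (YTD) in telogen and 18.3% (OAD) and 14.4% (YAD) in anagen. The summed FPKM of 12 skeletal muscle markers was 68268 and 107063 in the telogen libraries against 16249 and 12064 in the anagen libraries of old and young mice, although the muscle layer had been removed. The 13 hair matrix and shaft markers with values summed to 70.0 and 163 in telogen and to 16188 and 14777 in anagen. The 6 adipocyte markers (Adipoq, Plin1, Cidec, Lep, Cfd, Retn) had values well above 0 in all libraries, with sums of 4591 and 4232 in the old and young telogen libraries and 1413 and 952 in the anagen libraries. Ucp1, which defines brown fat, was at 0.122 FPKM or below in all libraries. The other brown fat markers listed were not all low. Elovl3 had 0.685 FPKM in OTD and 1.33 in YTD, and 39.3 in OAD and 62.2 in YAD. In the same order Ppargc1a had 4.74, 5.90, 1.19 and 1.94 FPKM and Cidea 2.00, 2.98, 1.58 and 0.673, and Dio2 had at most 1.17. The preadipocyte marker Dlk1 was listed at 0. The other 11 of 12 fibroblast and progenitor markers had values, for example Ly6a (517, 400, 73.3 and 65.8 FPKM).

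The members spanned a wide range of levels. Cebpa had 103 FPKM in OTD and 101 in YTD, and 87.8 in OAD and 83.4 in YAD, above 94.7% to 95.4% of the expressed genes of each library. Cebpb had 70.7 FPKM in OTD and 70.4 in YTD, and 262 in OAD and 148 in YAD, and in OAD it lay above 98.1% of the expressed genes. Cebpa was thus the highest member in both telogen libraries and Cebpb in both anagen libraries. Cebpb overlaps Tmem189 on the opposite strand, and use of the strand in counting is not given in the sources used here. Tmem189 itself had 28.6, 28.3, 31.0 and 33.9 FPKM in OTD, YTD, OAD and YAD. The part of the overlap in the Cebpb level was not tested. Pparg had 31.0 FPKM in OTD and 18.8 in YTD, and 7.90 in OAD and 5.73 in YAD, high in telogen and, within each phase, higher in the old library. Klf15 had 23.3 FPKM in OTD and 28.0 in YTD, and 9.52 in OAD and 10.4 in YAD. Ppard had 9.80 FPKM in OTD and 20.4 in YTD, and 17.5 in OAD and 15.4 in YAD, so that its lowest library was OTD, in which Pparg was at its highest.

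The precursor factors were low. Ebf1 had 9.59 FPKM in OTD and 6.20 in YTD, and 2.02 in OAD and 1.92 in YAD. Zfp423 had 4.17 FPKM in OTD and 4.11 in YTD, and 1.39 in OAD and 1.35 in YAD, nearly equal between the ages in each phase. Ebf2 had 3.60 FPKM in OTD and 1.36 in YTD, and 0.495 in OAD and 0.244 in YAD, the widest range of any member, 14.7-fold from lowest to highest, where the range of Cebpa was 1.23-fold. Ebf2 rested on roughly 121 fragments in OTD and 9.91 in YAD. Gm6878, which overlaps Ebf2 on the opposite strand, was listed at 0 in all libraries, but other annotated genes on that strand had no values. The annotated genes on the opposite strand of Ebf1, Pparg and Cebpa had no values either. The part of such transcripts in the members' levels was not tested. Ppara had 1.90 FPKM in OTD and 2.16 in YTD, and 0.571 in OAD and 0.955 in YAD, the lowest PPAR throughout.

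**Figure D1:**
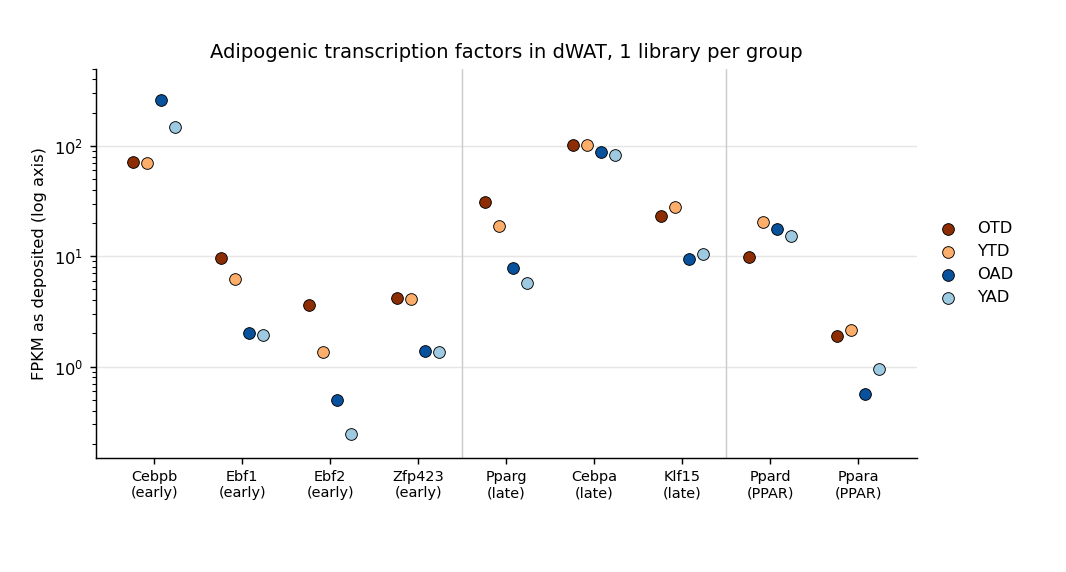
FPKM as deposited (log axis) of the 9 measured members, grouped into early factors, late factors and the other PPAR genes; each point is 1 of the 4 libraries. Cebpb is highest in OAD at 262 FPKM, Cebpa stays between 83.4 and 103 FPKM, and Ebf2 spreads most, from 0.244 to 3.60 FPKM.

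The first comparison asked whether regulators of fat cell formation differ between old and young dWAT in telogen. The difference of a gene is that of log2(FPKM + 1), which understates the difference of low genes, and a gene was counted as higher or lower when it reached 1 in size, a 2-fold difference on that scale. None of the 9 members reached it in OTD against YTD. Of all genes, 1.67% were higher and 1.93% lower among those with a value above 0, and 2.21% and 2.57% among those that reached 1 FPKM in either library, and the members' count of 0 is near that background. The members' median was 0.02, beside a median of -0.03 over all genes. At a 1.5-fold threshold Pparg and Ebf2 were higher and Ppard was lower, against 8.43% of all genes higher and 11.8% lower.

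Ebf2 was at 3.60 FPKM in OTD and 1.36 in YTD, a ratio of 2.65 with a counting interval of 1.87 to 3.80, and a log2 difference of 0.96. Counting intervals here are exact binomial at 95%, rest on the estimated fragments and cover counting error only, not the spread between mice. Ppard, at 9.80 against 20.4 FPKM, was 2.08 times higher in YTD (1.78 to 2.42), a log2 difference of -0.98. Pparg, at 31.0 against 18.8 FPKM, was 1.65 times higher in OTD (1.49 to 1.84), a log2 difference of 0.70. Of the genes at 1 FPKM or more, 5.41% differed by as much as Ebf2, 4.98% by as much as Ppard and 13.9% by as much as Pparg. In RNA of a whole tissue, fewer cells of a type and less RNA per cell cannot be told apart.

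Ebf1, at 9.59 and 6.20 FPKM, had a ratio of 1.55 (1.30 to 1.85). Cebpb, Cebpa and Zfp423 were close to equal in telogen. The OTD to YTD ratio was 1.0 for Cebpb (0.927 to 1.09), 1.01 for Cebpa (0.953 to 1.07) and 1.01 for Zfp423 (0.865 to 1.19). It was 0.831 for Klf15 (0.742 to 0.930), which was lower in OTD under each scaling tried. For Ppara it was 0.878 (0.589 to 1.28), an interval that includes equality. The signs of Cebpa, Cebpb and Zfp423 turn under at least 1 of the other scalings between libraries, so none of these is given a direction. Cell type markers also differed in telogen. All 7 endothelial markers were higher in OTD (median log2 difference 0.78), as were 11 of 12 macrophage markers (0.40) and 9 of the 11 fibroblast and progenitor markers with a value (0.54), while all 12 muscle markers were lower (-0.67). The 6 adipocyte markers had a median of 0.17. The part of these cells in the differences of Ebf1, Ebf2, Pparg and Ppard was not tested.

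In anagen the old and young libraries were closer to each other. None of the 9 members reached a log2 difference of 1 in OAD against YAD, with 0.727% of all genes higher and 0.454% lower, or 0.979% and 0.612% among genes at 1 FPKM or more. The members' median was 0.07, and that of all genes 0.00. At the 1.5-fold threshold Cebpb alone passed, against 3.67% of all genes higher and 2.38% lower.

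Cebpb was at 262 FPKM in OAD and 148 in YAD, a ratio of 1.77 (1.69 to 1.85) and a log2 difference of 0.82, and 2.69% of the genes at 1 FPKM or more differed by as much. With each library scaled to the same total (TPM) the log2 difference of Cebpb was 0.59. At equal adipocyte markers it was 0.51, less than 1.5-fold. Pparg, at 7.90 and 5.73 FPKM, had a ratio of 1.38 (1.14 to 1.65), next to adipocyte markers that were all higher in OAD (6 of 6, median log2 difference 0.25). Ppard, at 17.5 and 15.4 FPKM, had a ratio of 1.14 (1.0 to 1.29), and its sign turned with the scaling. Cebpa had a ratio of 1.05 (0.992 to 1.12), Ebf1 one of 1.05 (0.771 to 1.45), Zfp423 one of 1.03 (0.802 to 1.33) and Klf15 one of 0.916 (0.778 to 1.08), intervals that all include equality. Ebf2 and Ppara were under 1 FPKM in both libraries, and their ratios of 2.03 (0.919 to 4.85) and 0.597 (0.309 to 1.05) cannot be told from 1 at this depth. All 7 endothelial markers were higher in OAD (median log2 difference 0.45), as were 9 of 11 epidermal (0.17) and 10 of 12 muscle markers (0.41). Lower in OAD were 11 of 12 macrophage markers (-0.24), 7 of 11 fibroblast and progenitor markers with a value (-0.17) and 9 of 13 hair markers (-0.14). The part of these cells in the differences of the members was not tested.

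**Figure D2:**
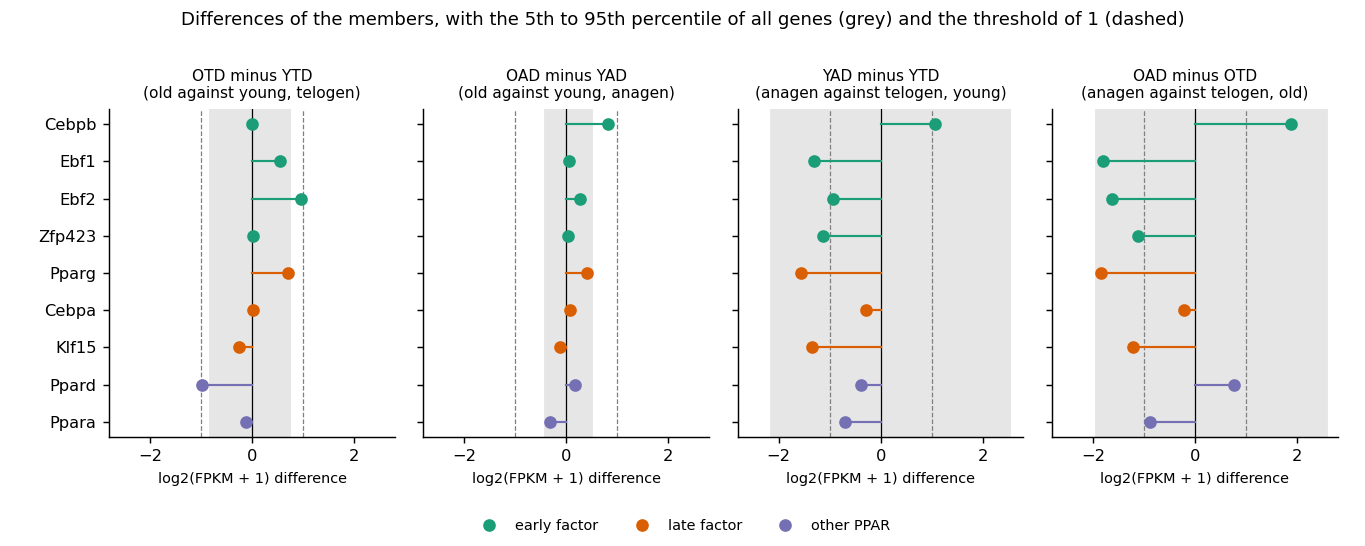
Log2(FPKM + 1) differences of the 9 members in the 4 comparisons, as points coloured by role; the grey band spans the 5th to 95th percentile of all genes at 1 FPKM or more and the dashed lines mark the threshold of 1. No member reaches the threshold between ages in either phase, and Ebf2, Ppard and Cebpb lie outside the band in 1 age comparison each; the anagen against telogen differences in the 2 right panels depend on the scaling between libraries.

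Between the phases the members differed far more, as did the genes as a whole. On the FPKM as deposited, Pparg, Ebf1, Zfp423 and Klf15 were lower and Cebpb was higher in YAD than in YTD, where 16.1% of all genes were higher and 16.7% lower (20.6% and 21.4% of those with an FPKM of at least 1). The same 5 genes and Ebf2, which was lower, passed in OAD against OTD, where 16.1% were higher and 15.6% lower (20.6% and 19.9%). The members' medians were -0.92 in young and -1.11 in old, next to medians of 0.02 and 0.01 over all genes. The comparisons share libraries with those between ages, and each is given by its own values.

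Pparg was 3.28 times higher in YTD than in YAD (2.78 to 3.86) and 3.93 times higher in OTD than in OAD (3.44 to 4.50). Ebf1 was 3.23 times higher in telogen in young (2.49 to 4.24) and 4.74 times in old mice (3.74 to 6.09). For Zfp423 these folds were 3.04 (2.47 to 3.79) and 3.0 (2.43 to 3.70). For Klf15 they were 2.70 (2.35 to 3.10) and 2.45 (2.12 to 2.83). Ebf2 had 5.57 (2.75 to 12.3) and 7.26 (4.47 to 12.0), and Ppara 2.27 (1.44 to 3.57) and 3.33 (1.97 to 6.08).

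Cebpb went the other way. It was 2.11 times higher in YAD than in YTD (1.97 to 2.25) and 3.71 times higher in OAD than in OTD (3.49 to 3.95). Of the genes at 1 FPKM or more, 38.9% in young and 14.4% in old mice differed by as much. Cebpa was 1.22 times (1.14 to 1.29) and 1.17 times (1.10 to 1.24) higher in telogen, and Ppard was 1.32 times higher in YTD than in YAD (1.17 to 1.5) but 1.78 times higher in OAD than in OTD (1.53 to 2.07).

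These differences depended on how the libraries were put on one scale. Rescaled to TPM, where each library sums to the same total, the median of the genes at 1 FPKM or more moved from 0.03 to 0.76 in young and from 0.05 to 0.58 in old mice. All genes then split into 5891 higher and 1274 lower in place of 2829 and 2938 in young, and into 4923 and 1502 in place of 2854 and 2759 in old. Under TPM, Cebpb was the only member past the threshold in young (log2 difference 1.90, 0 lower), and 2 were higher (Cebpb 2.49, Ppard 1.34) and 3 lower (Pparg -1.27, Ebf1 -1.32, Ebf2 -1.27) in old mice. Cebpa turned to the higher side under TPM in both ages (0.56 and 0.39), as did Ppard in young (0.42). Cebpb was higher and Ebf2 lower in anagen under each of the scalings tried, in both ages.

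The adipocyte markers were themselves lower in anagen, by a mean log2 FPKM of 7.98 in OTD against 6.43 in OAD and of 7.89 in YTD against 6.12 in YAD. Relative to that mean, Pparg stood at -3.02 (OTD) and -3.66 (YTD) in telogen and at -3.45 (OAD) and -3.60 (YAD) in anagen on the log2 scale, so that YTD and YAD were close and OTD was highest. Zfp423 stood at -5.92, -5.85, -5.95 and -5.68 in the same order, nearly level with the markers. Klf15 had -3.44, -3.08, -3.18 and -2.74. Ebf1 was at -4.72 in OTD and at -5.26, -5.41 and -5.18 in YTD, OAD and YAD, and Ebf2 at -6.13 in OTD against -7.45, -7.44 and -8.15. Cebpa moved from -1.30 in OTD and -1.23 in YTD to 0.03 in OAD and 0.26 in YAD, and Cebpb from -1.84 and -1.75 to 1.61 and 1.09. Ppard moved from -4.69 in OTD and -3.54 in YTD to -2.30 in OAD and -2.18 in YAD. Relative to adipocyte transcripts, then, Cebpa, Cebpb and Ppard were higher in both anagen libraries, and the ranges of Pparg, Klf15 and Zfp423 over the libraries were narrower. Epidermal markers, of which all 11 were higher in anagen (summed FPKM 110 and 179 in OTD and YTD, 3878 and 3064 in OAD and YAD), and the hair markers moved with Cebpb, and with Cebpa and Ppard relative to the adipocyte markers. Their part in these levels was not tested.

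**Figure D3:**
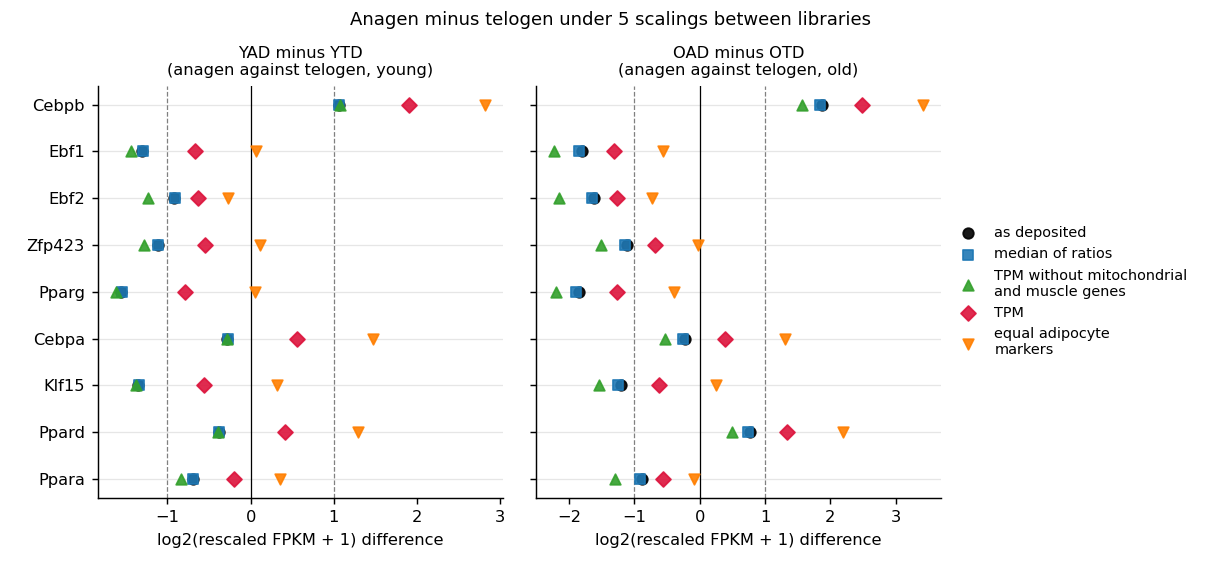
Anagen minus telogen difference of each member in young (left) and old (right) mice, on the log2(rescaled FPKM + 1) scale, with 1 symbol per scaling between libraries; dashed lines mark the threshold of 1. Cebpb lies to the right of 0 and Ebf2 to the left under all 5 scalings shown, whereas Pparg moves from -1.56 as deposited to 0.05 at equal adipocyte markers in young mice.

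Ratios within a library do not depend on that scale. Among the PPAR genes, the Pparg share of their sum was 72.6% in OTD and 45.5% in YTD, and 30.5% in OAD and 26.0% in YAD. The Ppard share was 22.9% in OTD and 49.3% in YTD, and 67.3% in OAD and 69.7% in YAD. The Ppara share was 4.44%, 5.24%, 2.2% and 4.33%. OTD was the only library in which Pparg clearly exceeded Ppard, with a Pparg to Ppard ratio of 3.17 (2.75 to 3.65), against 0.922 (0.818 to 1.04) in YTD, 0.452 (0.391 to 0.522) in OAD and 0.373 (0.316 to 0.441) in YAD.

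The ratio of Cebpa to Cebpb was 1.45 (1.35 to 1.56) in OTD and 1.44 (1.34 to 1.55) in YTD, equal within counting error. It was 0.334 (0.319 to 0.351) in OAD and 0.562 (0.532 to 0.594) in YAD, so Cebpb exceeded Cebpa in anagen and more so in the old library. The Ebf1 to Ebf2 ratio was 2.66 (2.16 to 3.32) in OTD, 4.56 (3.30 to 6.42) in YTD, 4.08 (2.48 to 6.83) in OAD and 7.86 (4.01 to 16.8) in YAD. Pparg to Ebf1 was the steadiest of the ratios, at 3.24, 3.03, 3.90 and 2.99.

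The early factors were set against the late factors by the mean log2 FPKM of Cebpb, Ebf1, Ebf2 and Zfp423 minus that of Pparg, Cebpa and Klf15. This balance was -2.06 in OTD and -2.42 in YTD, and -2.10 in OAD and -2.45 in YAD. It was higher in the old library by 0.36 in telogen, with a 95% counting error of 0.17 to either side (normal approximation), and by 0.35 in anagen, with one of 0.33. With Ppard among the early factors the telogen value was 0.043, and without Klf15 it was 0.14. The log2 FPKM ratios of the early factors in telogen were 1.40 for Ebf2, 0.63 for Ebf1, 0.02 for Zfp423 and 0.01 for Cebpb. In anagen they were 1.02 for Ebf2, 0.82 for Cebpb, 0.08 for Ebf1 and 0.04 for Zfp423. Those of the late factors were 0.72 for Pparg, 0.02 for Cebpa and -0.27 for Klf15 in telogen, and 0.46, 0.07 and -0.13 in anagen. Ebf2, the largest of the early factors in both phases, rested on roughly 9.91 fragments in YAD. By these values the balance difference in telogen came largely from Ebf2, although the balance without Ebf2 was not computed. The balance differed by -0.03 and -0.04 between the phases in young and old mice. The near equality between the phases joins opposite members: without Cebpb, the early factors were lower in anagen by a balance of -0.78 in young and -1.07 in old mice. With a pseudocount of 1 the difference between the phases turned to 0.49 in young and 0.43 in old mice.

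**Figure D4:**
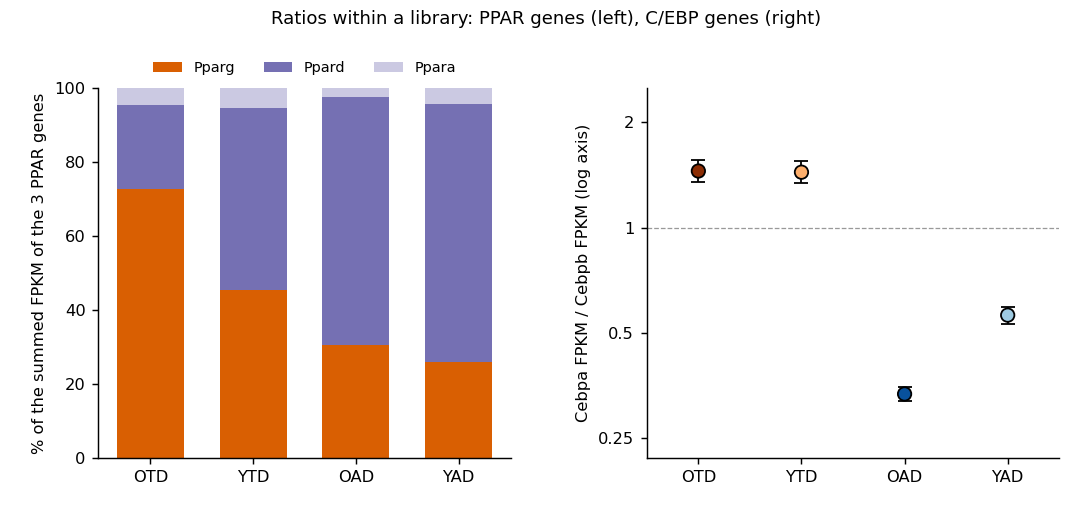
Left, share of Pparg, Ppard and Ppara in the summed FPKM of these 3 genes in each library, in percent. Right, Cebpa FPKM over Cebpb FPKM (log axis) with 95% counting intervals, 1 point per library; the Pparg share falls in the order OTD, YTD, OAD, YAD from 72.6% to 26.0%, and the C/EBP ratio lies above 1 in both telogen libraries and below 1 in both anagen libraries.

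The partners of the PPARs, retinoid X receptors with coactivators and corepressors, gave 16 genes, and none of them reached the threshold between ages. In telogen 13 of 16 were lower in OTD, with a median of -0.27, among them Rxrg (11.4 against 18.4 FPKM), Rxra (33.3 against 52.1) and the corepressor Ncor1 (22.0 against 31.8). Under the other scalings between 11 and 14 of the 16 were lower in OTD. In anagen their median was -0.03, and -0.25 under TPM with 15 of 16 lower in OAD. Between phases, Tle3, a coregulator that works with PPARγ, was higher in anagen (9.99 FPKM in OTD, 9.88 in YTD, 78.2 in OAD, 75.6 in YAD), and Rxrg was lower (11.4, 18.4, 3.06 and 2.00), as was the coactivator Ppargc1a (4.74, 5.90, 1.19 and 1.94). The hair and epidermal markers moved with Tle3, and their part in its level was not tested. Of the 16 partners, 1 was higher and 2 were lower in young, and 4 were higher and 2 lower in old mice. The median was 0.14 in young and 0.42 in old. Among all genes at 1 FPKM or more, 20.6% were higher and 21.4% lower in young and 20.6% and 19.9% in old mice, and the counts between phases of this and the following lists stand beside those shares. Under TPM, 6 partners were higher and 1 was lower in young (median 0.93), and 7 were higher and 1 lower in old mice (median 0.95). The counts between ages of these lists stand beside 2.21% of all such genes higher and 2.57% lower in telogen, and 0.979% and 0.612% in anagen. How many of all genes lay on either side of 0 was not counted. Their median was -0.06 in telogen and -0.0006 in anagen, and -0.21 in anagen under TPM.

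Of 16 other activators of fat cell formation, 3 were higher and none lower in OTD than in YTD, namely Klf4 (60.8 against 21.4 FPKM, log2 difference 1.47), Egr2 (7.38 against 2.46, 1.28) and Klf6 (44.0 against 19.7, 1.12), while the median of the list was -0.17. None passed in anagen (median 0.06). Between phases 3 were higher and 7 lower in young (median -0.60), and 1 was higher and 8 lower in old mice (median -0.90). Klf5, which acts between C/EBPβ and PPARγ, was higher in anagen (18.2 FPKM in OAD against 3.72 in OTD, 23.1 in YAD against 4.54 in YTD), and Zfp467 was lower (5.36 against 25.8 and 4.79 against 30.4). The liver X receptor gene Nr1h3 was lower as well (5.39 against 17.8 and 4.68 against 21.0). The hair and epidermal markers were higher in anagen like Klf5, and their part in its level was not tested. Under TPM 4 were higher and 4 lower in young (median -0.05), and 4 were higher and 3 lower in old mice (median -0.53).

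Of 16 repressors of fat cell formation, Egr1 (71.0 FPKM in OTD, 7.25 in YTD, log2 difference 3.13) and Klf2, a repressor of the Pparg promoter (138 against 56.7, 1.27), were higher in OTD, and none was lower (median 0.37). The list leaned to OTD under every scaling tried, with 12 or 13 of 16 higher, without a share of all genes on that side to set beside it. None passed in anagen (median 0.02). Between phases, Gata3 was higher in anagen, with 53.5 FPKM in OAD, 57.9 in YAD, 0.935 in OTD and 2.06 in YTD, and Klf2 was lower (22.2 in OAD, 14.7 in YAD). In young mice 4 were higher and 4 lower, and in old mice 2 were higher and 5 lower, with medians of -0.34 and -0.48. Under TPM 5 were higher and 1 lower in young (median 0.30), and 3 were higher and 4 lower in old mice (median -0.10). GATA3 and SOX9, also higher in OAD than in OTD (11.8 against 1.37 FPKM), are made in HF epithelium too, and the hair and epidermal markers above moved with them.

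The target genes were examined for what the factors' own levels do not show. Of 18 targets of PPARγ and C/EBPα in adipocytes, all were lower in anagen in both ages, 15 of them past the threshold in each, with medians of -1.74 in young and -1.40 in old mice. Examples are the glucose transporter Slc2a4 (29.6 FPKM in YAD against 208 in YTD, 38.0 in OAD against 151 in OTD) and the fatty acid carrier Cd36 (44.2 in OAD against 295 in OTD). Under TPM all 18 were still lower and 8 passed in each age. At equal adipocyte markers, which are 6 of the 18, the medians were 0.02 and 0.14. The 12 muscle markers were also all lower in anagen (median -3.10 in young and -1.99 in old), next to -2.77 for Slc2a4 in young. The part of muscle in the differences of these targets was not tested. Between ages, Pck1 (57.2 against 26.9 FPKM, log2 difference 1.06) was higher and Gpd1 (129 against 296, -1.19), an enzyme of glycerol 3-phosphate synthesis also found in muscle, was lower in OTD, with a median of -0.10 for the list. At equal adipocyte markers none was higher and 1 was lower in OTD (median -0.19). Fabp4 was at 2880 FPKM in OTD and 1873 in YTD (log2 difference 0.62). In anagen none passed, and 16 of 18 were on the higher side in OAD (median 0.24), a lean that was 9 of 18 under TPM.

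Of 16 targets of PPARα and PPARδ in fatty acid oxidation, 3 were higher in OTD than in YTD, among them Angptl4 (19.8 against 8.80 FPKM, log2 difference 1.09) and Pdk4 (204 against 97.6, 1.06), and none was lower, while Ppard itself was lower and Ppara was near equal. The list's median was 0.07. At equal adipocyte markers 1 was higher and none was lower in OTD, with 9 of 16 on the lower side and a median of -0.03. Under the other scalings 3 were higher. In anagen none passed and 13 of 16 were on the higher side in OAD (median 0.27), 9 of 16 under TPM. Between phases 10 were lower and 1 was higher in young, and 9 were lower in old mice, with medians of -1.20 and -1.19. Under TPM 5 were lower and 1 higher in young (median -0.37), and 4 were lower and 1 higher in old mice (median -0.64), and at equal adipocyte markers the medians turned to 0.43 and 0.26. The largest differences were in Fabp3, Cpt1b, Pdk4 and Ucp3, genes that skeletal muscle also expresses, and the muscle markers moved the same way (all 12 lower in anagen, median -3.10 in young and -1.99 in old). Their part in these differences was not tested.

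The 6 glucocorticoid targets were examined because glucocorticoids induce Cebpd and Klf15. In telogen only Errfi1 passed (52.6 against 22.9 FPKM, log2 difference 1.16, median of the list 0.04), and in anagen none (median -0.19). Tsc22d3 was lower in anagen, with 220 FPKM in OTD and 225 in YTD, and 48.6 in OAD and 61.1 in YAD. The list's medians between phases were -0.74 in young and -0.75 in old mice, and 0.08 and -0.18 under TPM, and turned to 0.97 and 0.67 at equal adipocyte markers.

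Cebpb is itself induced by stimulation of cells, so 14 immediate early genes were set beside it. Egr1, listed above as a repressor, and Egr2, listed above as an activator, are among these 14, so these lists are not independent. All 14 were on the higher side in OTD against YTD under every scaling tried, 12 past the threshold on the FPKM as deposited, with a median of 1.69. Fosb was at 22.5 against 0.513 FPKM, Fos at 131 against 12.3 and Junb at 119 against 19.5. Cebpb did not differ in that comparison (70.7 and 70.4 FPKM). In anagen, where Cebpb was 1.77 times higher in OAD, 13 of the 14 were on the higher side in OAD, Atf3 (8.47 against 2.60 FPKM) and Fos (18.5 against 7.68) past the threshold, and the median was 0.44. Under TPM 11 of the 14 were on the higher side and 1 passed (median 0.21), and at equal adipocyte markers 10 were and 1 passed (median 0.14). Between phases, 5 were higher and 3 lower in young (median 0.27) and 1 was higher and 7 lower in old mice (median -0.89). Under TPM these were 7 and 2 in young (median 1.08) and 4 and 5 in old mice (median -0.28). At equal adipocyte markers they were 9 and 0 in young (median 1.96) and 6 and 4 in old mice (median 0.64). Egr3, at 51.4 and 56.3 FPKM in OAD and YAD against 4.54 and 1.44 in OTD and YTD, and Cebpb were both higher in anagen in each age.

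**Figure D5:**
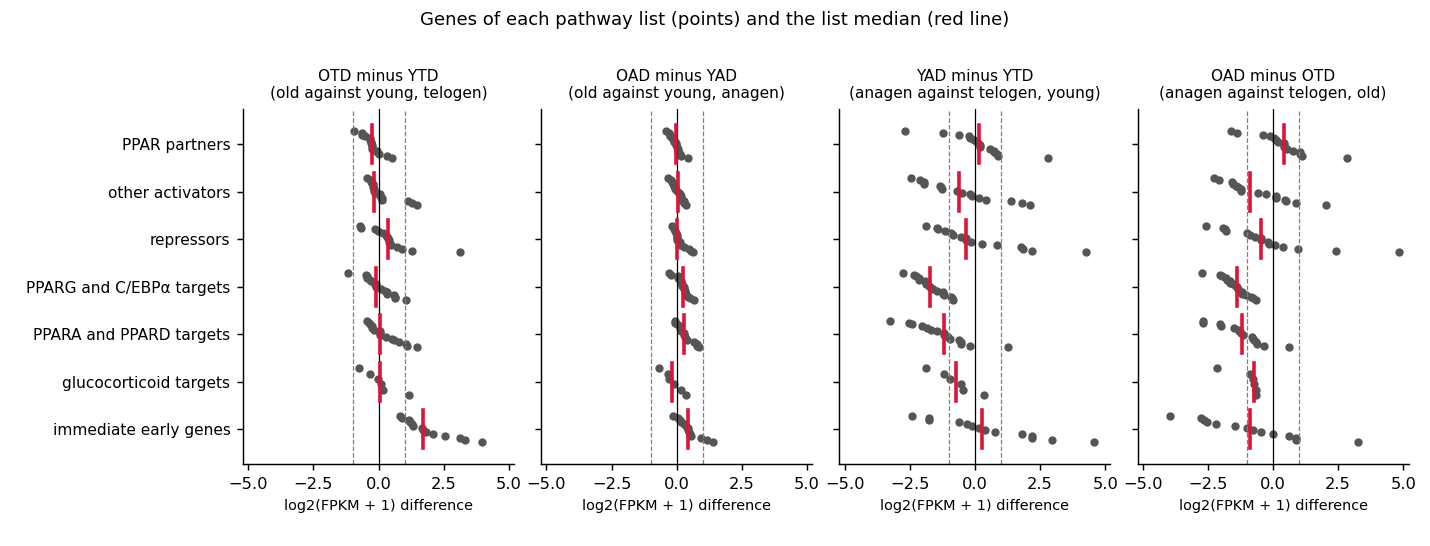
Log2(FPKM + 1) differences of the genes in 7 pathway lists in the 4 comparisons, as deposited; each point is 1 gene, the red line is the list median, and dashed lines mark the threshold of 1. The immediate early genes all lie to the right of 0 in OTD against YTD, with a median of 1.69, and the PPARγ and C/EBPα targets all to the left in anagen against telogen, with medians of -1.74 and -1.40, close to 0 at equal adipocyte markers.

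Relatives of the members followed no single pattern. Ebf3 had 5.07 FPKM in OTD and 3.60 in YTD, and 1.12 in OAD and 0.810 in YAD, lower in anagen like Ebf1 and Ebf2, although under TPM it was past the threshold only in old mice. Ebf4 had 0.766, 0.362, 1.70 and 1.17 FPKM. Cebpg, which pairs with other C/EBP proteins, had 23.4, 19.7, 17.0 and 19.8 FPKM, and Cebpe was at 0.0836 FPKM or below.

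For each member the 3 genes with the most similar pattern were sought by the root mean square difference of log2(FPKM + 1), centred over the 4 libraries, among 6798 genes that reached 5 FPKM in every library. With 4 points such likeness is a description only. The added 1 flattens members of low FPKM such as Ebf2, Zfp423 and Ppara, and candidates under 5 FPKM were left out. Their matches are therefore set in part by the scale and the filter. Closest to Pparg were Nbl1 (0.04), Cat (0.06), the gene of catalase, and Grrp1 (0.06). Cat had 124 FPKM in OTD and 85.3 in YTD, and 35.6 in OAD and 26.2 in YAD. Closest to Ebf1 was Tie1 (0.02), an endothelial receptor gene with 32.2, 21.0, 8.23 and 7.87 FPKM, followed by Gprc5b (0.05) and Efemp1 (0.05). Closest to Ebf2 was Pck1 (0.05), with 57.2, 26.9, 16.1 and 13.9 FPKM, followed by Rhoj and Anxa3 (0.08 each). The FPKM range of Pck1 is narrower than the 14.7-fold range of Ebf2. Closest to Klf15 was Pcx (0.02), the gene of pyruvate carboxylase, with 48.3, 57.3, 19.95 and 21.2 FPKM. For Cebpb they were Pcdh1 (0.06), Ccdc71l (0.07) and Rnd2 (0.08), for Cebpa Prkar1a (0.01), for Zfp423 Cd151 (0.01), for Ppard Cmc2 (0.06) and Capn1 (0.06), and for Ppara Ccnd3 (0.03).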

How the data were processed

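RNA was sequenced on an Illumina HiSeq and processed by the authors, who deposited FPKM values per gene for 4 libraries, with gene positions on GRCm38. The submitters' processing notes name bcl2fastq and TopHat2, and the counting tool, annotation and versions are not given in the sources used here. Of the lengths listed, 97.0% are multiples of 3, as coding lengths are. The identifiers were matched to symbols (21750 of 22166 Ensembl identifiers, beside 747 loci outside the annotation). FPKM were used as deposited, and differences are those of log2(FPKM + 1), with a threshold of 1. The depth was estimated from the lowest values of FPKM times length of features of 1500 to 6000 bases and is rough. Intervals (exact binomial, 95%) and floors (3 fragments) cover counting error only. With 1 library per group, no test was made.

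The members and gene lists were chosen with earlier results of these data known. Members are all named. Of each other list at most the 4 genes with the largest difference among those with an FPKM of at least 1 are named as such, beside genes given for their level in all libraries, and Egr3, Sox9, Ebf4, Cebpe, Gata3, Tmem189 and Gm6878 are named for their level or overlap. The alternatives were a pseudocount of 0.1, a filter at 1 FPKM, median of ratios, TPM, TPM without mitochondrial and muscle genes, TPM without hair and epidermal genes, a 1.5-fold threshold and other compositions of the balance. Rescaling to equal adipocyte markers, the PPAR and C/EBP ratios and the lists under other scalings were added after seeing the data. Only the calling of changes and the depth estimate were run on simulated counts, which held counting error and no spread between mice. The rescalings, the balance, the ratios, the likeness and the motif search were not. Some genes of the pathway lists are counted but not reported here by name. Promoters came from RefSeq (GRCm38.p6). Python 3.11.15, numpy 2.4.6, pandas 2.3.3, scipy 1.17.1 and matplotlib 3.10.9 were used.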

Additional observations from a re-analysis of the deposited data

Results flagged for a closer look

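Ppard differed between ages in opposite directions in the 2 phases. Its log2(FPKM + 1) difference of old against young was -0.98 in telogen (9.80 FPKM in OTD, 20.4 in YTD) and 0.17 in anagen (17.5 FPKM in OAD, 15.4 in YAD). Each group is 1 library, and the difference between the phases was not tested. The sign in anagen turned under scalings such as that to equal adipocyte markers.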

How the results depend on the processing

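No paired analysis was possible because there is 1 library per group, and for the same reason no replicate could be left out. Without replicates the spread between mice is unknown, and depth limits Ebf2 and Ppara most. Counts of members past the threshold, 0 in OTD against YTD, became 2 with a pseudocount of 0.1, 1 with median of ratios, TPM without mitochondrial and muscle genes or equal adipocyte markers, and 3 at 1.5-fold. The 0 in OAD against YAD became 1 at 1.5-fold. The 5 in young anagen against telogen became 1 under TPM with or without hair and epidermal genes and 3 with adipocyte markers, and the 6 in old became 3 with adipocyte markers. With adipocyte markers those 3 were all higher in anagen and 0 were lower, against 1 higher and 4 (young) or 5 (old) lower as deposited. They were Cebpb (2.81 in young, 3.41 in old), Cebpa (1.47, 1.31) and Ppard (1.29, 2.19), of which Cebpa and Ppard were not past the threshold as deposited.

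Over all genes, the 620 in telogen became 2144 with a pseudocount of 0.1, 972 without mitochondrial and muscle genes (621 higher, 351 lower) and 2754 at 1.5-fold. The 208 in anagen became 1109 with a pseudocount of 0.1, 321 without mitochondrial and muscle genes, 381 with adipocyte markers and 875 at 1.5-fold, and the split of 128 higher and 80 lower became 104 and 175 under TPM. The 5767 in young became 9811 with adipocyte markers (9346 higher) and 9213 at 1.5-fold, and the 5613 in old 9085 (8748 higher) and 9009.

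The members' median in OAD against YAD, 0.07, was -0.11 under TPM, -0.063 without mitochondrial and muscle genes, -0.10 without hair and epidermal genes and -0.18 with adipocyte markers. That between phases was 0.32 in young with adipocyte markers. In old mice, -1.11 became -1.52 with a pseudocount of 0.1, -0.63 under TPM, -1.51 without mitochondrial and muscle genes, -0.48 without hair and epidermal genes and -0.021 with adipocyte markers. With adipocyte markers equal, differences past the threshold turned in young for Pparg (0.052), Ebf1 (0.062), Zfp423 (0.12) and Klf15 (0.32), and in old for Klf15 (0.24). The cause was not tested.

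The early to late balance in telogen, 0.36, came largely from Ebf2, and was 0.043 with Ppard among the early factors and 0.14 without Klf15. Between phases it turned from -0.03 to 0.12 in young and from -0.04 to 0.37 in old mice with Ppard among the early factors, and to 0.49 and 0.43 with a pseudocount of 1, and was -0.78 and -1.07 without Cebpb. The balance between ages in anagen, 0.35, was 0.29 with Ppard among the early factors and 0.22 without Klf15. It was 0.24 without Cebpb and 0.17 with a pseudocount of 1. Each of these lies below the counting error of 0.33 on the 0.35, so a difference from 0 is not shown. No counting error was computed for these settings themselves.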
